A study of Mus musculus with 5 samples.

Results

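Transcript levels of 8 enzymes that make or break down proline, asparagine, glutamate, alanine, glutamine and cysteine were compared between mouse hearts lacking Immt in cardiomyocytes and control hearts. The set was given by name, with earlier results of these data known, and all 8 were present among the 15116 genes of the authors' deposited table: Pycr1 and Aldh18a1 (proline synthesis), Prodh (proline breakdown), Asns (asparagine synthesis), Got1 and Gpt2 (transamination), Glul (glutamine synthesis) and Cth (cysteine synthesis). Immt encodes Mic60 (mitofilin), a subunit of the MICOS complex that shapes the cristae junctions of mitochondria. Bulk 3′ tag libraries, primed with oligo-dT, were made from 2 knockout hearts (Immtfl/fl-Myh6-MCM, in which the tamoxifen-dependent MerCreMer recombinase is driven by the cardiomyocyte promoter Myh6) and 3 control hearts (Immt+/+-Myh6-Cre). All 5 mice are labelled as injected with tamoxifen. The knockout mice received it at 6 weeks of age and their hearts were taken 10 weeks later, whereas neither the age at injection nor the time after it is given in the labels of the controls, which the series describes only as age-matched. The controls carried Myh6-Cre and not MerCreMer, so loss of Immt and the difference in transgene cannot be told apart. The methods state that inducible knockout mice of both sexes were used and name males for the Myh6-Cre line, and the labels do not give the sex of these 5 hearts.

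Proline is made from glutamate, which Aldh18a1 activates and reduces to pyrroline carboxylate and which the Pycr enzymes then reduce to proline, while Prodh in mitochondria begins the way back. Asparagine synthetase (Asns) moves an amide group from glutamine to aspartate, the aminotransferases Got1 and Gpt2 exchange amino groups between glutamate and aspartate or alanine, glutamine synthetase (Glul) joins ammonia to glutamate, and cystathionine gamma-lyase (Cth) releases cysteine at the end of transsulfuration. Asns, Pycr1, Aldh18a1 and Cth are known from cultured cells and other models as targets of ATF4, the transcription factor of the integrated stress response, which binds CEBP-ATF response elements together with a CEBP partner.

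RefSeq promoter sequences (GRCm38.p6, 250 bases before to 50 bases after the start) were matched for 7 of the 8 genes, all but Cth, and were searched on both strands for TGATGNAAN, the core of the CEBP-ATF response element, in which N is any base. The 9 letters occurred in the promoters of Pycr1, Asns and Got1, 3 of 7 (42.9%), against 1299 of all 32851 promoters of this length (3.95%). The 100 bases around each match are shown for every enzyme with a match, with the match in capitals. Each window is read 5′ to 3′ on the strand of its gene.
Pycr1: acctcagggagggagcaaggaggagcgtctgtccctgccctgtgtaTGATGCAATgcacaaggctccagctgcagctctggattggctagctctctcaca
Asns: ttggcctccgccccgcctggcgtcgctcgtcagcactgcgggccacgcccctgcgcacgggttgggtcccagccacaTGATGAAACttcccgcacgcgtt
Got1: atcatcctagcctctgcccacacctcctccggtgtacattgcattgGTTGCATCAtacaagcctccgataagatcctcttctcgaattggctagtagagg
The Pycr1 window lies at chr11:120643798-120643897, the Asns window at chr6:7693210-7693309 and the Got1 window at chr19:43524655-43524754, all on the minus strand. The match ran from 103 to 95 bases upstream of the start in Pycr1 and also in Got1, where it is written on the opposite strand as TGATGCAAC, and from 23 to 15 bases upstream in Asns. No match was found in the windows of Aldh18a1, Prodh, Gpt2 and Glul. A match is a description of the letters, and binding was not measured here.

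The table gives 1 mean and 1 SD per group in normalized CPM, reads relative to the effective size of a library. The CPM of single libraries was worked back from these wherever whole reads, or steps of 0.5 reads, gave a single solution, for all 8 genes in both knockout libraries and for 6 of the 8 in the control libraries. Effective library sizes were 15.2 M (library A) and 14.1 M reads (library B) in the knockout, and 13.6 M (X), 13.6 M (Y) and 12.1 M reads (Z) in the control, and which labelled replicate each letter stands for is not known. Immt, the targeted gene, was at 15.98 and 19.8 CPM in the knockout libraries and between 245 and 263 CPM in the control libraries, and its knockout mean was 7.04% of the control mean. Cardiomyocyte markers summed to 24437 CPM in the knockout and 29234 CPM in the control and were abundant in both groups. Of these markers, 4 of 6 were called lower (Tnnt2, Tnni3, Actc1 and Pln). Myh6 was at 2781 CPM in the knockout and 3225 CPM in the control and was not called. Myl2 went the other way, at 6677 CPM in the knockout and 5968 CPM in the control, also not called. A gene was called at a limma adjusted p below 0.05 (Benjamini-Hochberg over all 15116 genes), with fold changes on the log2(mean CPM + 0.5) scale, which understates the change of low genes. Of all genes, 3958 (26.2%) were called, 2014 higher in the knockout (13.3%) and 1944 lower (12.9%). The labels do not say that samples came from separate animals, although the methods name the individual mouse as the experimental unit. The p-values therefore weigh group differences against the spread between these libraries.

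Of the 8 enzymes, 5 rose in the knockout (Asns, Pycr1, Aldh18a1, Cth and Got1), 1 fell (Prodh) and 2 did not pass the test (Gpt2 and Glul), against background shares of 13.3% higher and 12.9% lower. The 5 that rose are enzymes that act in the synthesis of proline, asparagine or cysteine, and the cytosolic aspartate aminotransferase. The median log2 fold change was 1.41 over the 8 enzymes and −0.02 over all genes. Knockout libraries lay above all control libraries for the 5 that rose (for Got1, by the range its SD allows), as they did for 22.3% of the 11666 genes with solved libraries. Rises past a log2 fold change of 1 were reached by Asns, Pycr1, Aldh18a1 and Cth, and 315 genes of the table (2.08%) passed that limit upwards. None of the 8 was among the 581 genes (3.84%) past a log2 fold change of −1. In bulk tissue, a change in the share of cardiomyocytes and a change of RNA per cell cannot be told apart.

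**Figure D1:**
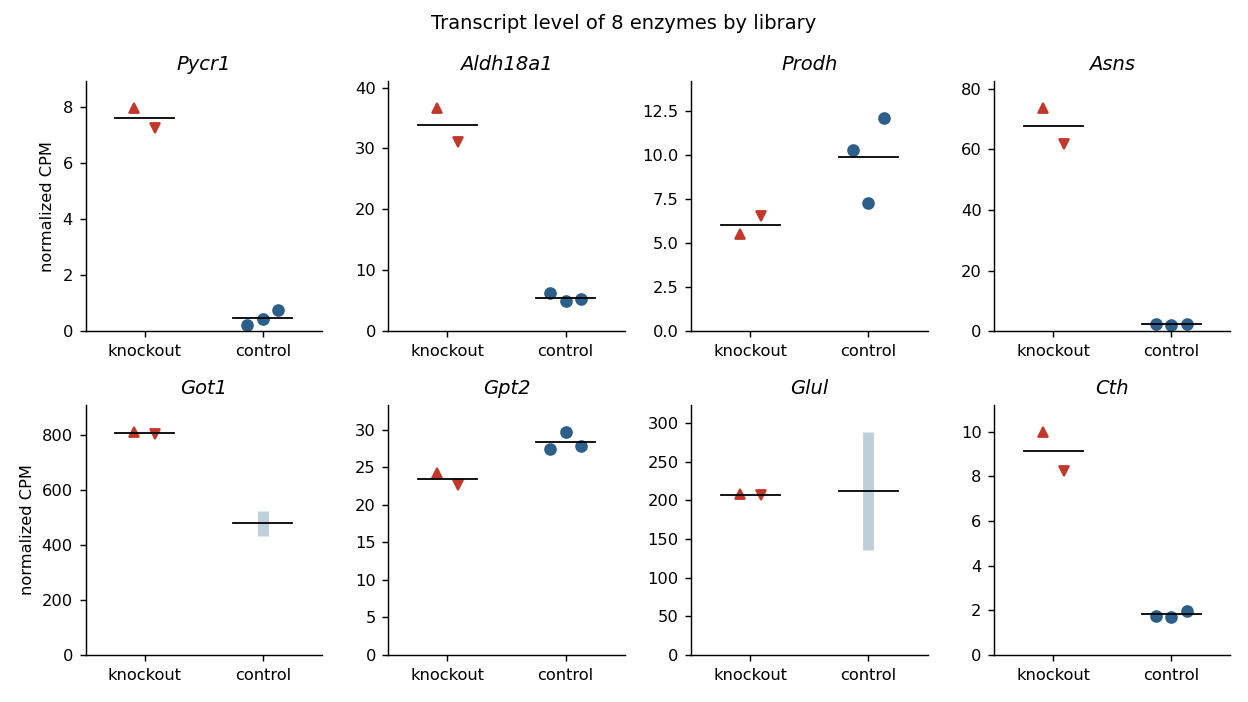
Normalized CPM of each enzyme (vertical axis, from 0) in the knockout libraries (red, library A pointing up and B pointing down) and the control libraries (blue dots, X, Y and Z from left to right), with the deposited group mean as a black line. The pale bars of Got1 and Glul are the range that the deposited SD allows for 3 control libraries. Knockout libraries sit above all control libraries for Pycr1, Aldh18a1, Asns, Got1 and Cth and below them for Prodh and Gpt2.

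Both members of the set that act in proline synthesis from glutamate, Aldh18a1 and Pycr1, rose. Aldh18a1, the bifunctional synthase of the first steps (ENSMUSG00000025007), stood at 36.7 CPM in knockout library A and 31.1 CPM in B, against 6.23, 4.99 and 5.28 CPM in control libraries X, Y and Z. Both knockout values were several times the highest control value, and the groups did not overlap. The deposited mean was 33.9 ± 3.92 CPM in the knockout and 5.50 ± 0.650 CPM in the control (SD, n = 2 and n = 3), a 6.16-fold difference, and the log2 fold change was 2.52 (95% interval 2.21 to 2.83, limma adjusted p = 1.07e-05). By log2 fold change it ranked 24 of the 9104 genes that averaged 5 CPM or more.

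Pycr1, the mitochondrial reductase of the last step (ENSMUSG00000025140), was barely read in control hearts. It had 7.96 and 7.25 CPM in knockout libraries A and B, from 121 and 102 reads, against 0.220, 0.440 and 0.743 CPM in control libraries X, Y and Z, from 3, 6 and 9 reads. All control values were below 1 CPM and the groups did not overlap. The mean of 7.604 ± 0.502 CPM in the knockout was 16.3-fold the 0.468 ± 0.262 CPM in the control (SD, n = 2 and n = 3), with a log2 fold change of 3.07 (2.51 to 3.62, limma adjusted p = 6.55e-05). The fold size rests on 18 control reads in all, and with a pseudocount of 2 CPM in place of 0.5 the log2 fold change was 1.96 (adjusted p = 2.53e-05).

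The cytosolic reductase and the other source of pyrroline carboxylate showed smaller differences. Pycr3, the cytosolic paralog of Pycr1, was called higher by 0.39 on the log2 scale, at 8.49 and 7.75 CPM in the knockout and 6.01, 6.24 and 5.94 CPM in the control (limma adjusted p = 0.0495). The call was lost when any 1 of the 5 libraries was left out, with log2 fold changes between 0.33 and 0.45. It was also lost with a pseudocount of 2 CPM (limma adjusted p = 0.0517) and with limma on the solved libraries (0.067). Oat, ornithine aminotransferase, had a log2 fold change of −0.10 (−0.24 to 0.05) and was not called. The difference between Pycr1 and Pycr3 was not tested.

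Prodh, proline dehydrogenase, which oxidizes proline in mitochondria (ENSMUSG00000003526), was the only enzyme of the 8 called lower. It had 5.53 and 6.54 CPM in knockout libraries A and B, against 10.3, 7.27 and 12.1 CPM in control libraries X, Y and Z. The groups did not overlap, although control library Y lay closer to knockout library B than to the other control libraries. Both knockout libraries were below all control libraries in 28.2% of the 11666 genes with solved libraries. The means were 6.03 ± 0.716 CPM in the knockout and 9.86 ± 2.42 CPM in the control (SD, n = 2 and n = 3), a log2 fold change of −0.67 (−1.11 to −0.22, limma adjusted p = 0.0353). The call was lost under scaling to library totals (−0.55, adjusted p = 0.0662), without a mean-variance trend (−0.67, adjusted p = 0.0723) and without knockout library A (−0.53, adjusted p = 0.259), knockout library B (−0.75, adjusted p = 0.124) or control library X (−0.60, adjusted p = 0.116). The other enzymes of proline breakdown were not called, with log2 fold changes of −0.20 for Aldh4a1, the dehydrogenase of the next step, and −0.20 for Prodh2, a hydroxyproline dehydrogenase. Prodh2 had only 16 reads in the knockout and 28 in the control.

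Asns had the steepest rise of the 8. Asparagine synthetase (ENSMUSG00000029752) stood at 73.7 CPM in knockout library A and 61.6 CPM in B, against 2.49, 2.20 and 2.31 CPM in control libraries X, Y and Z. The control libraries lay close together and far below both knockout libraries. The knockout mean of 67.7 ± 8.55 CPM was 29.0-fold the control mean of 2.34 ± 0.147 CPM (SD, n = 2 and n = 3), with a log2 fold change of 4.59 (4.30 to 4.88, limma adjusted p = 3.91e-07). It ranked 9 among the 9104 genes that averaged 5 CPM or more over both groups. It entered that set only through its knockout level, as its control mean was below 5 CPM. Asparagine breakdown had no called gene: Aspg, an asparaginase read 23 times in the knockout and 17 times in the control, had a log2 fold change of 0.47 (adjusted p = 0.137, and 0.0394 without a mean-variance trend), and Asrgl1, an asparaginase and isoaspartyl peptidase, one of 0.32 (adjusted p = 0.073, and 0.0193 under scaling to library totals).

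**Figure D2:**
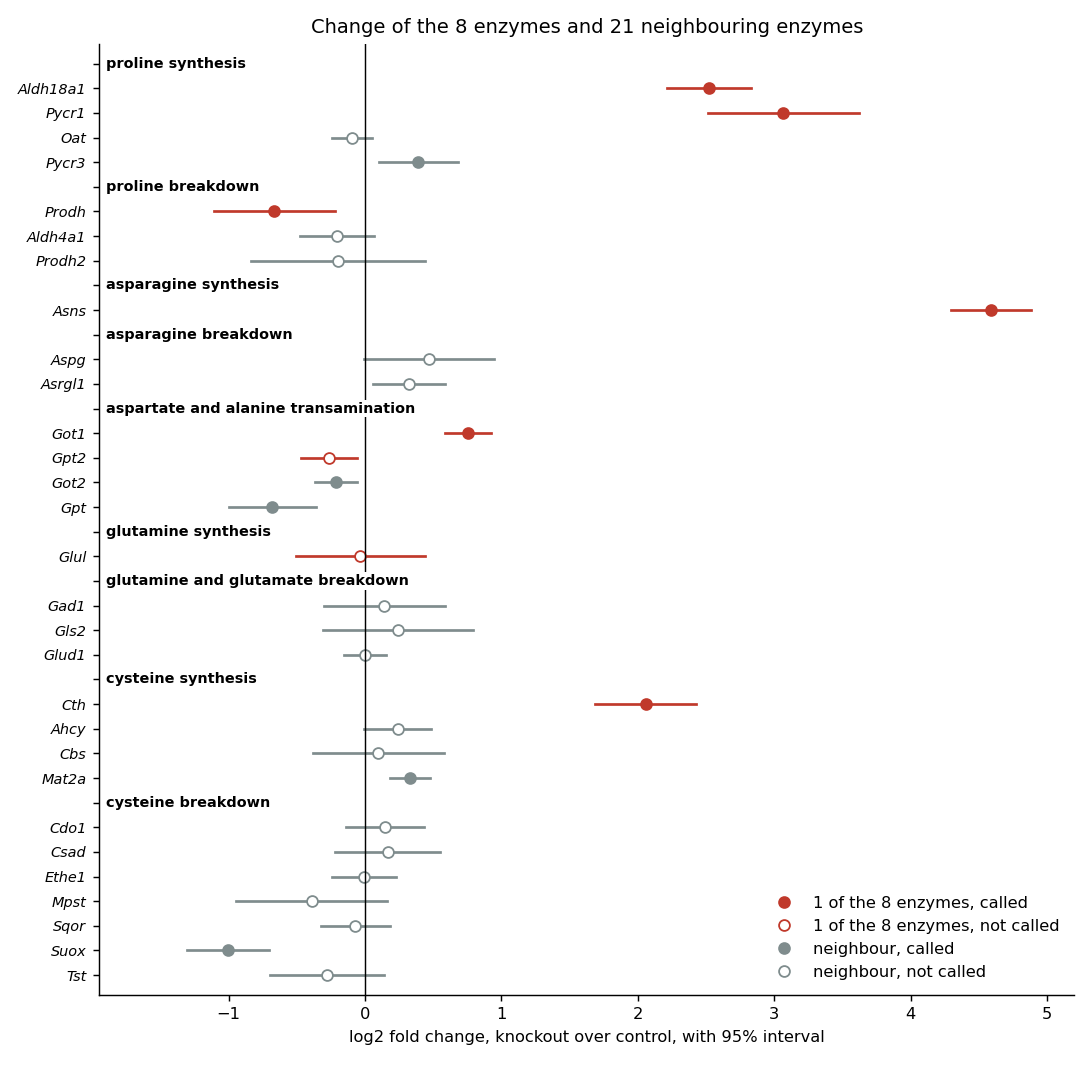
Log2 fold change, knockout over control, of the 8 enzymes (red) and 21 neighbouring enzymes of the same pathways (grey), grouped by role, with unadjusted 95% intervals as bars. Filled points passed a limma adjusted p below 0.05. Asns lies furthest right at 4.59, followed by Pycr1, Aldh18a1 and Cth, and Suox furthest left at −1.004.

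Among the aminotransferases, Got1 rose and Gpt2 did not pass the test. Got1, the cytosolic aspartate aminotransferase (ENSMUSG00000025190), had 814 and 805 CPM in knockout libraries A and B. Single control libraries could not be solved, but the deposited SD confines all 3 to between 433 and 526 CPM, below both knockout libraries. The means were 809.7 ± 6.63 CPM in the knockout and 479.6 ± 40.3 CPM in the control (SD, n = 2 and n = 3), a 1.69-fold difference with a log2 fold change of 0.76 (0.58 to 0.93, limma adjusted p = 0.000199). By log2 fold change it ranked 452 of 9104, the smallest of the 5 rises.

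Gpt2, the mitochondrial alanine aminotransferase (ENSMUSG00000031700), had 24.3 and 22.7 CPM in knockout libraries A and B, against 27.4, 29.7 and 27.8 CPM in control libraries X, Y and Z. Both knockout libraries were below all control libraries, which was also true of 28.2% of the 11666 genes with solved libraries. The log2 fold change was −0.27 (−0.47 to −0.06) with a limma adjusted p of 0.0595. It passed the threshold when genes below a mean of 5 CPM were left out (adjusted p = 0.0489) and without control library Z (−0.28, adjusted p = 0.0353). Under scaling to library totals the log2 fold change was −0.14 (adjusted p = 0.284), and without a mean-variance trend the adjusted p was 0.117.

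The partner enzymes in the other compartments were both called lower. Gpt, the cytosolic alanine aminotransferase, had 9.28 and 8.46 CPM in the knockout and 15.5, 15.9 and 12.1 CPM in the control, a log2 fold change of −0.68 (limma adjusted p = 0.00761). Without knockout library A the adjusted p was 0.0508 (−0.73) and without library B 0.0924 (−0.61). Got2, the mitochondrial aspartate aminotransferase, had 152 and 155 CPM in the knockout and between 168 and 189.6 CPM in the control, a log2 fold change of −0.21 (adjusted p = 0.0474). That call was lost under scaling to library totals (−0.09, limma adjusted p = 0.385) and with genes named mt- left out of the totals (−0.18, adjusted p = 0.0785). It was also lost without a mean-variance trend (adjusted p = 0.186) and without either knockout library (−0.20 without A and −0.23 without B). Got1 and Got2 thus had log2 fold changes of 0.76 and −0.21, and the difference between them was not tested.

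Glul had close group means and an unequal spread. Glutamine synthetase (ENSMUSG00000026473), which in the heart makes glutamine from glutamate and ammonia, had 208 and 206 CPM in knockout libraries A and B. The deposited SD of the control, 66.5 CPM, requires its lowest library to lie at or below 173.7 CPM and its highest at or above 250.5 CPM, so the control libraries lay on both sides of the knockout. The means were 207.1 ± 1.28 CPM in the knockout and 212.1 ± 66.5 CPM in the control (SD, n = 2 and n = 3), and the log2 fold change was −0.03 (−0.51 to 0.44, limma adjusted p = 0.925), or 0.09 under scaling to library totals (adjusted p = 0.776). With this spread, any difference within that interval remained compatible with the data. Of the enzymes that use glutamine and glutamate, Gls2, liver-type glutaminase, had a log2 fold change of 0.24 (−0.31 to 0.79). Gad1, glutamate decarboxylase, had one of 0.14 (−0.30 to 0.58) and Glud1, glutamate dehydrogenase, one of 0.00 (−0.15 to 0.15). None of them was called. Gls2 had only 34 reads in the knockout and 36 in the control, and Gad1 only 31 and 36.

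Cth, the enzyme that forms cysteine from cystathionine (ENSMUSG00000028179), rose. It had 10.0 and 8.24 CPM in knockout libraries A and B, against 1.76, 1.69 and 1.98 CPM in control libraries X, Y and Z, from 152 and 116 reads against 24, 23 and 24 reads. Both knockout libraries lay well above the narrow range of the control. The mean of 9.12 ± 1.24 CPM in the knockout was 5.04-fold the 1.81 ± 0.153 CPM in the control (SD, n = 2 and n = 3), with a log2 fold change of 2.06 (1.69 to 2.43, limma adjusted p = 6.51e-05). The preceding enzyme of transsulfuration, Cbs, had a log2 fold change of 0.10 (−0.38 to 0.58) and was not called, at 31 reads in the knockout and 38 in the control. Mat2a, which makes S-adenosylmethionine from methionine, was called higher by 0.33, with 100.3 and 103 CPM in the knockout and 80.7, 80.6 and 81.6 CPM in the control (adjusted p = 0.0064, or 0.0542 without a mean-variance trend). Without knockout library A or B the call was kept on the solved libraries (adjusted p = 0.0209 and 0.0338) and lost against the control as its deposited summary (0.0587 and 0.0872). Ahcy, which splits S-adenosylhomocysteine, was not called (0.24, adjusted p = 0.144, and 0.0346 under scaling to library totals).

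Of 7 enzymes that break down cysteine or handle its sulfur, 1 was called. Suox, sulfite oxidase, had 7.10 and 8.81 CPM in the knockout and 16.1, 15.2 and 18.1 CPM in the control, a log2 fold change of −1.004 (−1.31 to −0.70, limma adjusted p = 0.000816), and it passed the threshold under every alternative. The other 6 (Cdo1, Csad, Mpst, Tst, Sqor and Ethe1) had log2 fold changes between −0.39 and 0.17. Across all pathways, 2 of the 21 neighbours given here were called higher and 3 lower, against 13.3% higher and 12.9% lower over all genes, with a median log2 fold change of 0.00, against −0.02 over all genes.

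**Figure D3:**
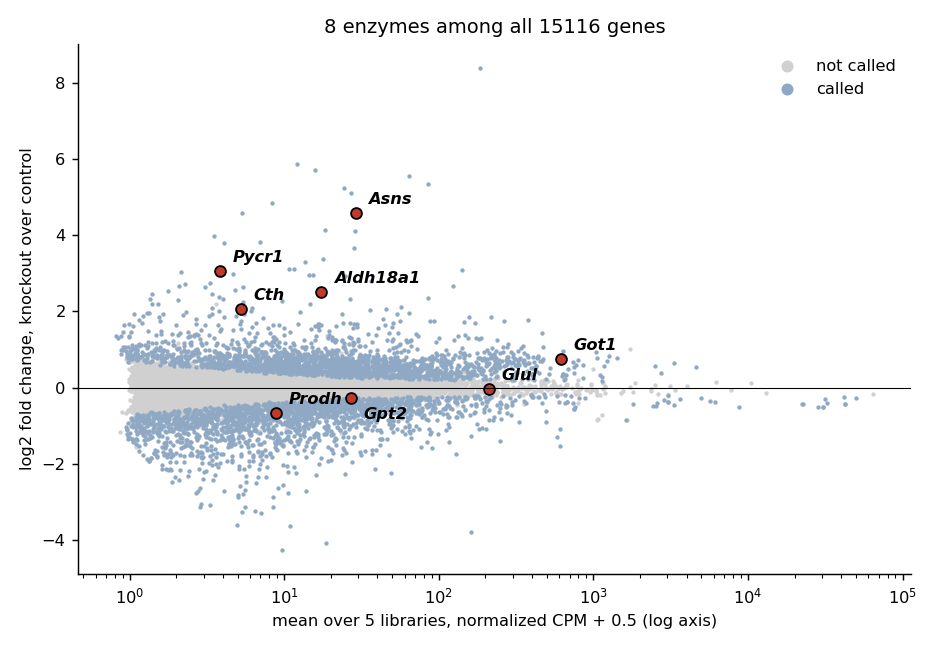
Log2 fold change, knockout over control (vertical axis), against the mean over the 5 libraries in normalized CPM + 0.5 (horizontal log axis) for all 15116 genes, with called genes in blue, other genes in grey and the 8 enzymes as red points with names. Asns, Pycr1, Aldh18a1 and Cth lie far above the line of no change, while Glul and Gpt2 lie within the bulk of genes.

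The knockout libraries also differed between themselves. Library A was above library B in 7 of the 8 enzymes, all but Prodh, with ratios of A over B of 1.20 for Asns, 1.21 for Cth, 1.18 for Aldh18a1 and 1.10 for Pycr1, and 0.845 for Prodh. Got1 and Glul differed by about 1% (ratios of 1.01 each). Over 7713 genes that averaged 5 CPM or more, the median ratio was 1.02, and 56.1% were higher in library A. Immt was lower in library A (15.98 CPM) than in B (19.8 CPM), a ratio of 0.806. With 2 knockout libraries no relation between Immt and these enzymes could be tested.

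Markers of other cell types were examined beside these results. Hepatocyte markers summed to 272 CPM in the knockout and 287 CPM in the control, with none of 3 called and Alb itself at 211 CPM in the knockout and 222 CPM in the control. Fibroblast markers summed to 357 CPM in the knockout and 418 CPM in the control, with 1 of 5 called lower (Dcn), and smooth muscle and pericyte markers to 274 CPM in the knockout and 350.0 CPM in the control, with none of 3 called. Endothelial markers summed to 185 CPM in the knockout and 174 CPM in the control and leukocyte markers to 25.1 CPM in the knockout and 30.05 CPM in the control, with none of 4 called in either list. All of the adipocyte markers listed (0 of 3 with values) were outside the table. The part of cell composition in the changes of the 8 enzymes was not tested.

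The 5 rises kept their direction and passed the threshold under every alternative that could be fitted to them. Over the fits that left out 1 library, the log2 fold change ranged between 4.45 and 4.71 for Asns, 2.91 and 3.30 for Pycr1, 2.40 and 2.64 for Aldh18a1, 1.92 and 2.19 for Cth, and 0.75 and 0.76 for Got1. For Got1 only knockout libraries could be left out, as its control libraries were not solved, so its range does not reflect the control spread.

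**Figure D4:**
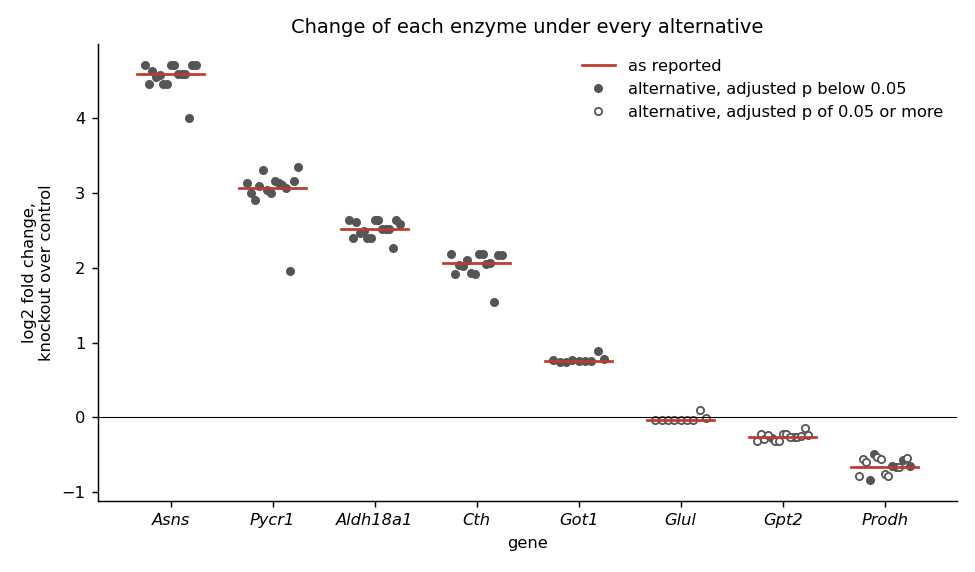
Log2 fold change, knockout over control (vertical axis), of each enzyme as reported (red line) and under each alternative processing (dots, filled where the limma adjusted p was below 0.05). The dots of Asns, Pycr1, Aldh18a1, Cth and Got1 are all filled and above 0, those of Prodh are all below 0 and partly open, and those of Gpt2 and Glul are mostly open.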

How the data were processed

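Heart RNA of 5 mice was captured by oligo-dT and sequenced as tagmented, barcoded 3′ libraries. The submitters' processing notes name edgeR 4.0.16, Subread 2.1.1 with featureCounts, SAMtools 1.22.1, STAR 2.7.11 and the build GRCm39, without roles. The authors deposited 1 table of 15116 genes, whose signal columns hold the mean and SD of normalized CPM per group. Their other columns (fold change, mean log CPM, F, p, adjusted p and its log) hold their own comparison and were not used. The table gives no counts per library. The reads worked back from it (below) cover part of the genes and include steps of 0.5 reads, and they were tested with limma, not with a count model.

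From the deposited signal values, the difference of log2(mean + 0.5 CPM) was tested with limma 3.58.1 in R 4.3.3: variances from the deposited SDs by the delta method, 3 residual degrees of freedom, moderation with a mean-variance trend, two-sided, adjusted by Benjamini-Hochberg over all genes and checked on simulated data. The fit assumes equal spread in both groups, and over the 9103 genes that averaged 5 CPM or more and were above 0 in both groups the median coefficient of variation was 5.28% in the knockout and 8.30% in the control. The knockout columns summed to 947955 CPM and the control columns to 1036321 CPM. Single control libraries were solved in steps of 0.5 reads or more, within 1.5 times the rounding error of the sixth digit. Knockout values followed from the mean and SD and were assigned to library A or B within 0.01 reads of such a step. Both groups were solved for 11666 genes (77.2%). Below 60 CPM, 72.2% of knockout genes came out as whole reads within 0.01 reads. Library sizes set the precision of low genes, and replicate numbers could not be tied to libraries.

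The 8 enzymes, the neighbours (22 listed from textbook pathways, 21 measured) and the marker lists were chosen with earlier results of these data known. All 8 enzymes, Immt and every called neighbour are named, and in a role with no called neighbour the others are given as values. Some neighbouring enzymes are not reported here. Further neighbours and single markers were named after their values were seen. Promoter sequences came from RefSeq on GRCm38.p6, a different build from that of the table, so no coordinates of the table are given. Alternatives were a pseudocount of 2 CPM, a minimum mean of 5 CPM, scaling to library totals with and without the mitochondrial genome, no variance trend, limma on the solved libraries and leaving out each library. The mitochondrial genome was taken as genes named mt-, and entries with nearly the same values stayed in the totals, such as Gm28437 (42451 CPM) beside mt-Co3 (42444 CPM). A further alternative kept, gene by gene, the knockout value nearer to or farther from the control mean. Leaving out a knockout library with the control as its deposited summary was added after the data were seen.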

Additional observations from a re-analysis of the deposited data

How the results depend on the processing

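No called result turned its direction under any alternative run. Called higher genes numbered 2014 as reported, 3067 under scaling to library totals, where higher genes made up 68.4% of calls in place of 50.9% and all genes had a median of 0.09 in place of −0.02 on the log2 scale, and 1170 with limma on the solved libraries, which held fewer genes. Calls past 1 on the log2 scale were 315 higher and 581 lower as reported, 199 and 271 with a pseudocount of 2 CPM, and 184 and 270 with a minimum mean of 5 CPM. Leaving out 1 library gave between 503 and 1560 higher genes and between 605 and 1950 lower genes, and past a log2 fold change of 1 between 213 and 367 higher and between 326 and 686 lower genes. The arm left with 1 knockout library was assumed to vary like the control. Prodh was −0.55 under scaling to library totals and −0.67 without a trend, neither called, and ranged between −0.84 and −0.49 without 1 library. Gpt2 was called with a minimum mean of 5 CPM (−0.27) and ranged between −0.31 and −0.22 without 1 library, called without control library Z. The causes were not tested. The minimum of 5 CPM gave no value for Pycr1 and Cth, nor the solved libraries for Got1 and Glul. No paired analysis was possible because the deposited columns carry no replicate numbers. With 18 and 71 control reads, depth limits the fold sizes of Pycr1 and Cth.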
